A study of Mus musculus with 5 samples.

Results

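The genes described here are 7 receptors and 3 SMADs of the transforming growth factor beta (TGF-beta), activin and bone morphogenetic protein (BMP) pathway, measured in mouse blood-forming cells with and without the Rb family. They were read from every probe set whose platform annotation gives a member's symbol and no other, which came to 30 of 45037 probe sets. The 10 genes stand among 18193 genes with such a probe set. A probe set that is annotated to Acvr2a together with another gene was left out.

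The cells were sorted as KLS, by c-Kit and Sca-1 without lineage markers, a fraction in which stem and early progenitor cells of the blood are found. Deficient cells were read on 3 arrays and had the genotype Rb -/- p130 -/- p107-/-. The group titled wild type had 2 arrays with Rb +/+ p130 +/+ p107+/-, so these controls were heterozygous for p107. For both groups the labels state that the Mx1Cre inducible system was activated in mice 6 weeks old and that cells were sorted 2 months later. Mx1-Cre is driven by an interferon-responsive promoter and is not limited to blood cells. The study made 6 hybridisations and excluded 1. The labels do not say whether the arrays came from separate animals or pools, so any p-value rests on the spread of these 5 arrays alone, which may be technical.

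TGF-beta family ligands bind type II receptors, which phosphorylate type I receptors. The activated type I receptor phosphorylates receptor-regulated SMADs, which join the common partner SMAD4 and act on transcription in the nucleus. TGF-beta and activin signal mainly through SMAD2 and SMAD3, and BMPs through SMAD1, SMAD5 and SMAD9. TGF-beta is known for holding haematopoietic stem cells out of the cell cycle.

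Levels are log2 intensities, and differences are deficient minus wild type on the log2 scale, with the standard error (SE) and 95% interval from limma. A gene was called at an adjusted p under 0.05. As a check of the labels, Rbl1, which encodes p107, read 4.25 to 5.15 in deficient arrays and 7.16 to 8.33 in wild type arrays on its brightest probe set. These arrays did not overlap, but Rbl1 just missed the threshold (difference -3.04, adjusted p = 0.0513, limma over all probe sets). The brightest probe sets of Rb1 and Rbl2 did not pass either (adjusted p = 0.732 and 0.473, limma), and where the probes lie relative to the deleted parts is not given in the sources used here. Sex-linked transcripts set some arrays apart. Xist read 12.42 in deficient 2 and 3.44 to 3.73 in the other deficient arrays, against 9.31 in wild type 2 and 3.58 in wild type 1. Eif2s3y, on the Y chromosome, read 3.50 in deficient 2 and at least 9.81 on the other 4 arrays. Wild type 2 thus read high for both Xist and Eif2s3y, and the reason was not tested. Results are therefore also given without deficient 2 and without wild type 2. Kit, used in the sort, differed by 0.06 (SE 0.16). Ly6a, which encodes Sca-1, had no probe set annotated to it alone and was not read.

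Among the 10 genes, 1 was called when each gene was read on 1 probe set, and it was higher in deficient cells (Acvr1b). The other 9 members did not pass, and their 95% intervals lay between -0.93 and 0.82. The share called among all 18193 genes was 2.24% in either direction and 0.830% for higher in deficient. With all 45037 probe sets fitted, 0 of the 30 member probe sets were called by limma, where 0.491% of all were (0.164% higher and 0.326% lower in deficient). At an unadjusted p under 0.05 there were 3 of 30 member probe sets, against 14.1% of all probe sets.

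**Figure D1:**
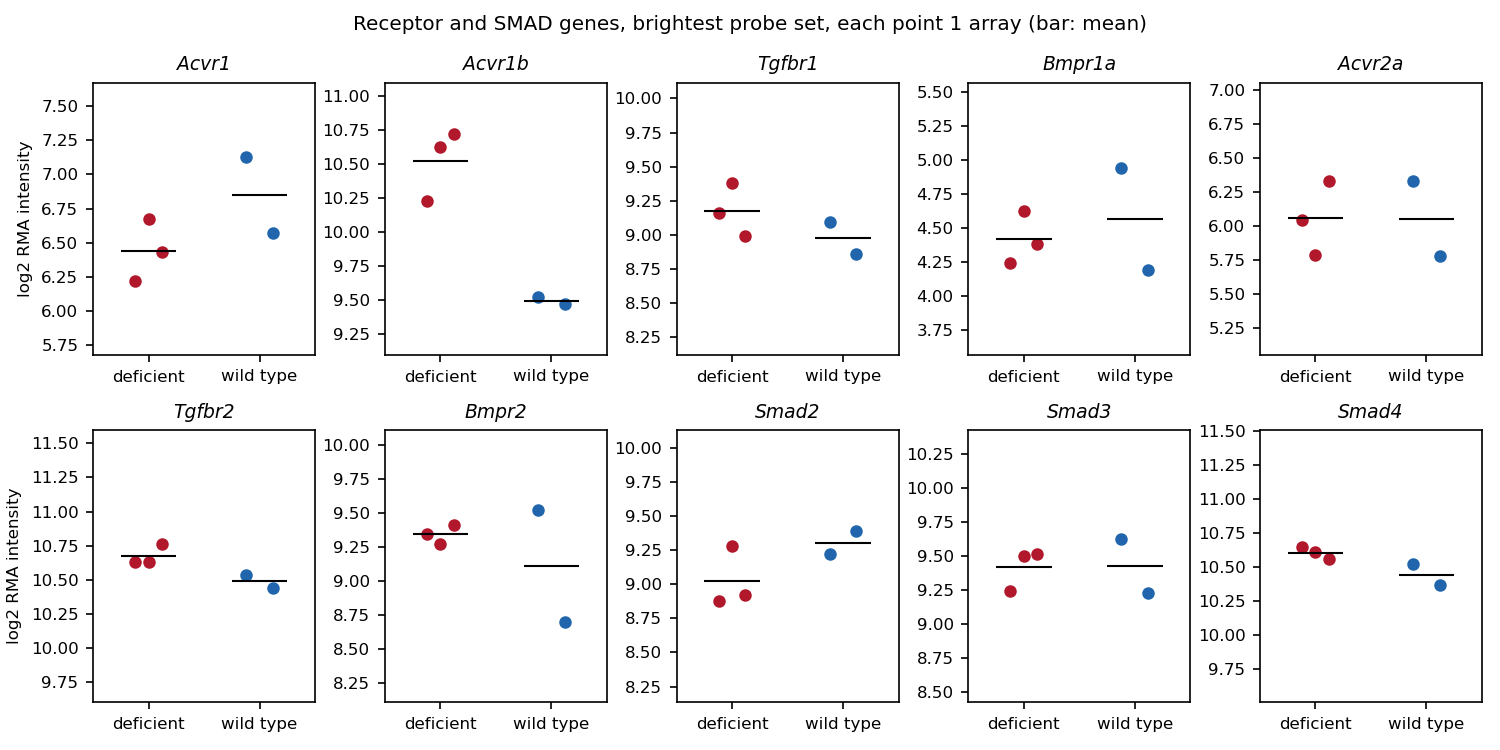
Log2 RMA intensity (vertical axis, a separate scale for each gene) of the brightest probe set of each receptor and SMAD gene, with 3 deficient arrays on the left and 2 wild type arrays on the right. Points are arrays and bars are group means. The deficient points of Acvr1b lie between 10.23 and 10.72, above the wild type points at 9.47 and 9.52, whereas the groups of 7 other genes overlap.

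Acvr1b encodes the type I receptor through which activin acts on SMAD2 and SMAD3. Its brightest probe set (1433725_at) read 10.23, 10.63 and 10.72 in deficient 1, 2 and 3, against 9.52 and 9.47 in wild type 1 and 2. Every deficient array lay above both wild type arrays, and the gap was wider than the range of either group. The difference was 1.03 (SE 0.17, interval 0.61 to 1.44), a 2.04-fold higher level in deficient cells, with an adjusted p of 0.0447 on a single probe set for each gene (limma). Fitted among all probe sets, the same probe set just missed the threshold (adjusted p = 0.0762, limma). As the RNA is from a mixed fraction, a higher level per cell and more cells with the transcript cannot be told apart.

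The call of Acvr1b was not steady, although its size was. With 1 array left out at a time it was lowest when deficient 3 was dropped, at 0.93, and highest when deficient 1 was, at 1.18, and 1 of the 5 fits called the gene, that without deficient 1 (adjusted p = 0.0455, limma). It was 0.98 without deficient 2 (adjusted p = 0.110, limma) and 1.00 without wild type 2 (adjusted p = 0.133, limma). A second, dim probe set of Acvr1b (1422098_at) had a mean of 4.40 in deficient arrays and 4.36 in wild type arrays, below the median of all probe sets, 4.73. Its groups overlapped (difference 0.03, SE 0.13). The rise of Acvr1b therefore rests on 1 probe set, and the mean of both differed by 0.53 (adjusted p = 0.0949, limma).

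The upstream sequence of Acvr1b is shown beside that of Tgfbr1, because the products of both genes are type I receptors that act on SMAD2 and SMAD3 and because Acvr1b was called and Tgfbr1 was not. Each line gives the 250 bases before the annotated start (RefSeq, GRCm38.p6, plus strand), 5′ to 3′, chr15:101173822-101174071 for Acvr1b and chr4:47352972-47353221 for Tgfbr1. Capitals mark CpG dinucleotides, 42 in Acvr1b and 29 in Tgfbr1.
Acvr1b: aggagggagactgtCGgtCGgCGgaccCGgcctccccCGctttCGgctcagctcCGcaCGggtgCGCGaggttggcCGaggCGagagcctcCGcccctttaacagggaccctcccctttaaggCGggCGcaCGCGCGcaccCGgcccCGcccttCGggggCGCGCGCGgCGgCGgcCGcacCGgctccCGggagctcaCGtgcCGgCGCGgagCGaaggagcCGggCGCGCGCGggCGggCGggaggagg
Tgfbr1: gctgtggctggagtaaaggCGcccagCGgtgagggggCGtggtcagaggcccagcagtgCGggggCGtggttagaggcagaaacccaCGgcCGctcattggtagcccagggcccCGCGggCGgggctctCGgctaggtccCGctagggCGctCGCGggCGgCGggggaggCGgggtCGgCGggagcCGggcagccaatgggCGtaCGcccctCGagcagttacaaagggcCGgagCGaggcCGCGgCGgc
Both windows are dense in CpG. Over 32851 such windows in the RefSeq table the median was 6.

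Upstream windows were found for 8 of the members, Smad2 and Smad4 having none in the table, and Tgfbr1 had 2 starts. Taking the CpG-richer start of Tgfbr1, all 8 genes had at least 12 CpG, as did 33.5% of all windows. The count was highest in Acvr2a (49) and Acvr1 (46) and lowest in Tgfbr2 (12), so the called gene was not the richest. E2F transcription factors, which the Rb family restrains, are known to bind words such as TTTCCCGC, TTTCGCGC, TTTGCCGC and TTTGGCGC. None of these words, on either strand, lay in the 9 member windows, and 1.86% of all windows held one. The word GGCGCC, known from SMAD-bound genes, lay in the Tgfbr1 window printed here, in those of Bmpr1a and Bmpr2 and in 9.59% of all windows. The CAGACA word of TGF-beta-responsive genes was in 1 member window, that of the other Tgfbr1 start, and in 17.1% of all windows. Palindromic GTCTAGAC was in 0 of 9 and in 0.167% of all. TTTGAA, a word of cell cycle genes, was in the Tgfbr2 window and in 16% of all. No 2 of these matches lay in the same window, and a match is only a description of the letters.

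The other type I receptors did not pass. Tgfbr1, the TGF-beta type I receptor, read 9.16, 9.38 and 8.99 in deficient 1 to 3, against 9.10 and 8.86 in wild type 1 and 2 (1420895_at). The groups overlapped, with a difference of 0.20 (interval -0.18 to 0.58, adjusted p = 0.598, limma). Its other 2 probe sets were dim and differed by 0.02 and 0.07.

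Acvr1, a type I receptor for BMPs, read 6.22, 6.67 and 6.43 in deficient arrays and 7.13 and 6.57 in wild type arrays (1448460_at). Its difference of -0.41 was the lowest of the 10 genes, but deficient 2 lay above wild type 2 (interval -0.93 to 0.11, adjusted p = 0.385, limma). The value was -0.69 without wild type 2 and -0.13 without wild type 1. The other Acvr1 probe sets differed by 0.05 and -0.04. Bmpr1a, another BMP type I receptor, had 6 probe sets, all below the median of all probe sets, with differences from -0.21 to 0.03. RMA compresses differences at such levels, so little can be read from Bmpr1a on these arrays. Its brightest probe set (1425492_at) read 4.25, 4.62 and 4.38 in deficient arrays, against 4.94 and 4.20 in wild type arrays.

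Type II receptors, which bind ligand and phosphorylate type I receptors, had 3 members and none was called. Tgfbr2, the TGF-beta type II receptor, read 10.63, 10.63 and 10.76 in deficient arrays and 10.54 and 10.44 in wild type arrays (1426397_at). These groups did not overlap, yet the difference was small (0.18, SE 0.11, adjusted p = 0.462, limma). Acvr2a, an activin and BMP type II receptor, read 6.05, 5.79 and 6.33 in deficient arrays and 6.33 and 5.78 in wild type arrays (1437382_at). Its groups covered nearly the same range (difference 0.0016, interval -0.54 to 0.55). Its other probe set (1451004_at) differed by 0.50 (SE 0.30), again with overlapping groups.

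Bmpr2, the BMP type II receptor, gave different readings from its 3 probe sets. The brightest (1434310_at) read 9.34, 9.27 and 9.41 in deficient arrays, between the wild type arrays at 9.52 and 8.70. The difference of 0.24 was 0.65 without wild type 1 and -0.18 without wild type 2, so its direction rests on which wild type array is used. A second probe set (1419616_at) read 5.61, 5.45 and 5.11 in deficient arrays, above the 4.91 and 4.85 of wild type arrays (difference 0.51, adjusted p = 0.246, limma). Another (1441652_at) read 4.62, 4.46 and 4.53 in deficient arrays, below the 4.97 and 5.10 of wild type arrays (difference -0.50, adjusted p = 0.130, limma). Groups did not overlap on either of these dimmer probe sets, and they pointed in opposite directions. With the brightest of Acvr1b they are the 3 member probe sets with an unadjusted p under 0.05.

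**Figure D2:**
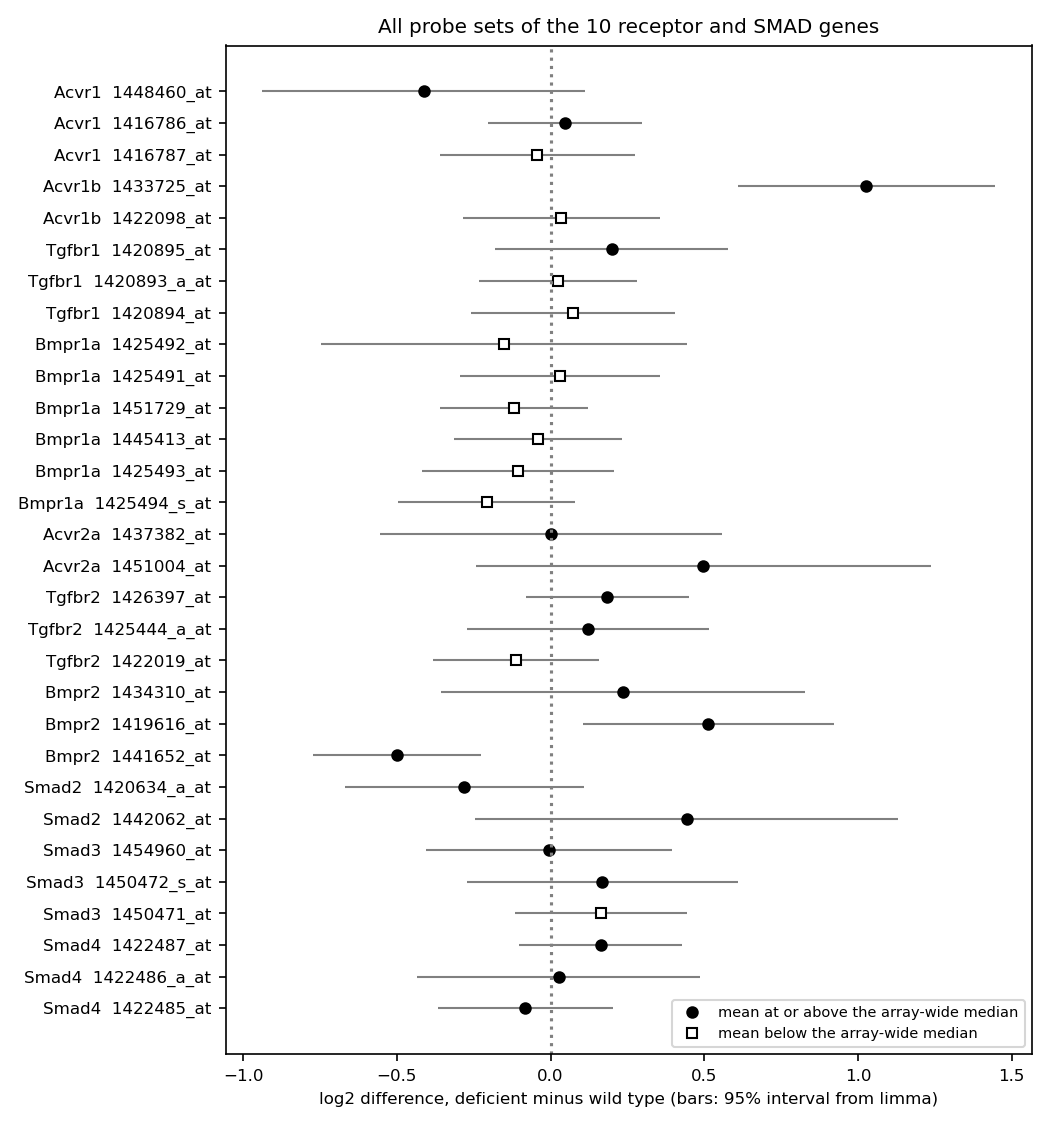
Log2 difference, deficient minus wild type (horizontal axis), of all 30 probe sets of the 10 genes, with 95% intervals from limma. Filled circles are probe sets whose mean is at or above the median of all probe sets and open squares are those below it. The brightest Acvr1b probe set stands at 1.03, and the 2 dimmer Bmpr2 probe sets lie on opposite sides of 0 at 0.51 and -0.50.

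SMADs carry the signal to the nucleus, and none of the 3 was called. Smad2, a receptor-regulated SMAD for TGF-beta and activin, read 8.88, 9.28 and 8.92 in deficient arrays and 9.22 and 9.39 in wild type arrays (1420634_a_at). Deficient 2 fell within the wild type range, and the difference was -0.28 (interval -0.67 to 0.11, adjusted p = 0.436, limma). Its other probe set (1442062_at) differed by 0.44 (SE 0.28), with wild type 2 at 5.87 and the other 4 arrays at 6.71 to 6.94.

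Smad3, the other receptor-regulated SMAD of this branch, read 9.24, 9.50 and 9.51 in deficient arrays and 9.62 and 9.23 in wild type arrays (1454960_at). The groups overlapped almost wholly, with a difference of -0.0043 (interval -0.40 to 0.39). Smad4, the common partner, read 10.65, 10.61 and 10.56 in deficient arrays and 10.52 and 10.36 in wild type arrays (1422487_at). Every deficient array was higher, by little (0.16, interval -0.11 to 0.43, adjusted p = 0.531, limma). The remaining Smad4 probe sets differed by 0.03 and -0.08, with overlapping groups.

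Set side by side on 1 probe set per gene, the 7 receptors had a median difference of 0.18 and the 3 SMADs one of -0.0043, where all 18193 genes had -0.010. Over all probe sets the medians were 0.03 for 22 receptor probe sets and 0.09 for 8 SMAD probe sets, against 0.0027 for all 45037. Groups of arrays did not overlap for 3 of the 10 members, Acvr1b, Tgfbr2 and Smad4, all higher in deficient arrays. The share not overlapping among all genes was 35.1%, made up of 16.5% higher and 18.6% lower, so the members' count was close to the background. Over all member probe sets 4 were higher and 3 lower without overlap, of 30, against 30.5% of all probe sets in either direction.

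The members differed between the wild type arrays as well. Of the 10 brightest probe sets, 9 read higher in wild type 1 than in wild type 2, with a median gap of 0.31, while 48.4% of all genes did, with a median gap of -0.0092. Over all 30 member probe sets the pattern was weaker, with 19 higher in wild type 1 and a median gap of 0.04. Bmpr2 (0.82), Bmpr1a (0.75), Acvr1 (0.56) and Acvr2a (0.55) had the widest gaps, each wider than its difference between the groups. The gap was 0.05 for Acvr1b and 0.10 for Tgfbr2. With wild type 1 or wild type 2 left out, the sign of the difference was not the same for Bmpr1a, Acvr2a, Bmpr2 and Smad3. That sign held in all 5 fits with 1 array left out for Acvr1, Acvr1b, Tgfbr1, Tgfbr2, Smad2 and Smad4.

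**Figure D3:**
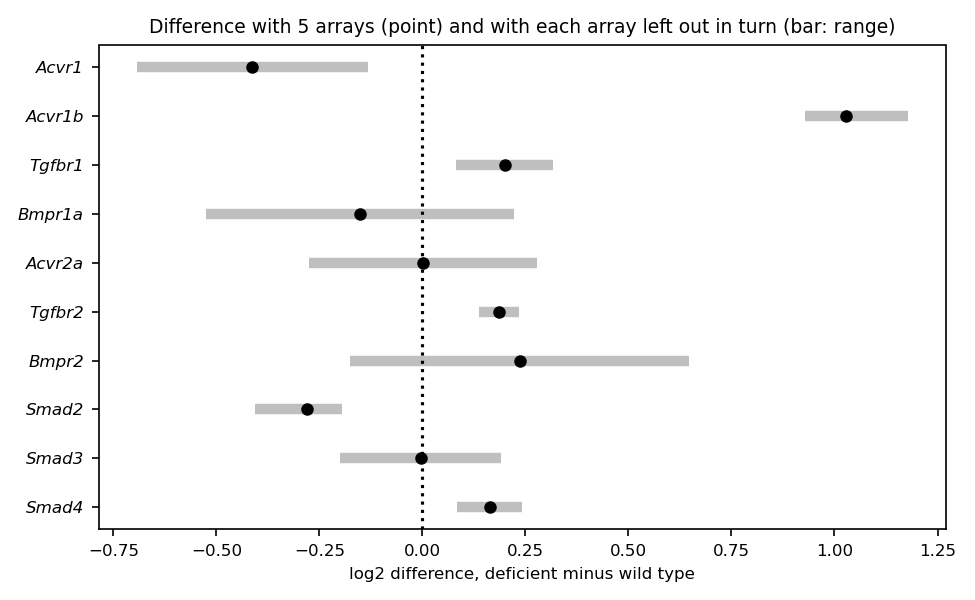
Log2 difference, deficient minus wild type (horizontal axis), of each gene with 5 arrays (point) and its range over the 5 fits that each leave out 1 array (bar), on 1 probe set per gene. The bar of Acvr1b runs from 0.93 to 1.18, whereas those of Bmpr1a, Acvr2a, Bmpr2 and Smad3 cross 0.

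Other genes of the pathway were read from a list grouped by role, of which 91 genes had a probe set of their own. On 1 probe set per gene, 1 was called higher and 6 were called lower, and 84 did not pass. That is 7 of 91, where 2.24% of all genes were called. With all probe sets fitted, 1 of 212 pathway probe sets was called higher (Tgfb1) and 2 were called lower (Bmp4 and Id2, limma). Of all probe sets, 0.491% were called in that fit. The list was drawn up with earlier results of these data known, which included falls of Cdkn1a and Cdkn1c, so these counts are descriptions only. Its median difference was 0.02, against -0.010 for all genes.

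Ligands held a rise and a fall. Tgfb1, which encodes a TGF-beta ligand, read 8.70, 8.80 and 8.93 in deficient arrays and 7.46 and 7.76 in wild type arrays (1420653_at). All deficient arrays were higher, by 1.20 (SE 0.14, interval 0.86 to 1.54), or 2.30-fold (adjusted p = 0.0204, limma). It was 1.21 without deficient 2 (adjusted p = 0.0630, limma) and 1.35 without wild type 2 (adjusted p = 0.0401, limma), which was the 1 of 5 such fits that called it. Another, dimmer Tgfb1 probe set differed by 0.16 with overlapping groups, and the mean of both differed by 0.68 (adjusted p = 0.0486, limma).

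Bmp4, a BMP ligand gene, read 5.14, 4.52 and 5.40 in deficient arrays and 8.52 and 7.52 in wild type arrays (1422912_at). Its groups lay far apart, with a difference of -3.00 (SE 0.37, adjusted p = 0.0224, limma). The deficient level was close to the median of all probe sets, 4.73. Bmp4 passed without wild type 2 (-3.50, adjusted p = 0.0348, limma) and missed the threshold without each of the other arrays, at -3.19 to -2.50. Inhba, which encodes an activin subunit, was dim and differed by -0.60 (adjusted p = 0.103, limma). In all, 17 of the 19 genes listed under ligands did not pass. Of all genes, 2.24% were called in either direction.

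Genes known as SMAD targets had 5 of 17 called on 1 probe set per gene, all lower in deficient cells. Of all genes, 1.41% were called lower. The 5 include Cdkn1a and Cdkn1c, whose falls were known when the list was drawn up, so the count is a description only. Of all 17, 9 had a lower mean in deficient cells and 8 a higher one. With all probe sets fitted, only Id2 of the 5 was called (adjusted p = 0.00841, limma). For the others the smallest adjusted p ran from 0.0684 (Cdkn1c) to 0.0818 (Klf10, limma). Id2, an inhibitor of basic helix-loop-helix factors that BMP signals raise, read 6.46, 6.46 and 6.37 in deficient arrays and 8.28 and 8.44 in wild type arrays (1435176_a_at). The arrays of each group lay close together, and the level in wild type was 3.80-fold that in deficient cells (difference -1.93, SE 0.11, adjusted p = 0.00346, limma). Whichever array was dropped, Id2 was called in each of 5 fits, at -2.01 to -1.85. Its other 2 probe sets, both near or below the median of all probe sets, differed by -0.74 and -0.22, again with no overlap. The mean of the 3 probe sets differed by -0.96 (adjusted p = 0.0123, limma).

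Cdkn1c and Cdkn1a, CDK inhibitor genes that TGF-beta is known to raise, fell too. Cdkn1c read 5.93, 6.69 and 6.36 in deficient arrays, against 8.66 and 7.88 in wild type arrays (difference -1.94, SE 0.30, adjusted p = 0.0385, limma). Cdkn1a read 8.84 to 9.24 in deficient arrays, against 9.86 and 10.20 in wild type arrays (interval of the difference -1.42 to -0.59, adjusted p = 0.0458, limma). Neither was called in any of the 5 fits with 1 array left out. The differences then ran from -2.33 to -1.56 for Cdkn1c and from -1.17 to -0.83 for Cdkn1a.

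Klf10, a TGF-beta-inducible early gene, read 8.11, 8.52 and 8.11 in deficient arrays and 9.23 and 9.12 in wild type arrays (difference -0.93, adjusted p = 0.0496, limma). It passed in 1 of the 5 fits with 1 array left out, that without deficient 2 (-1.06, adjusted p = 0.0489, limma). Id3, a relative of Id2, fell by 0.79 on the log2 scale (adjusted p = 0.0444, limma) on a probe set below the median of all probe sets, and passed in 0 of those 5 fits. Id1, a further ID gene, differed by 0.39 in the other direction and did not pass (adjusted p = 0.180, limma).

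**Figure D4:**
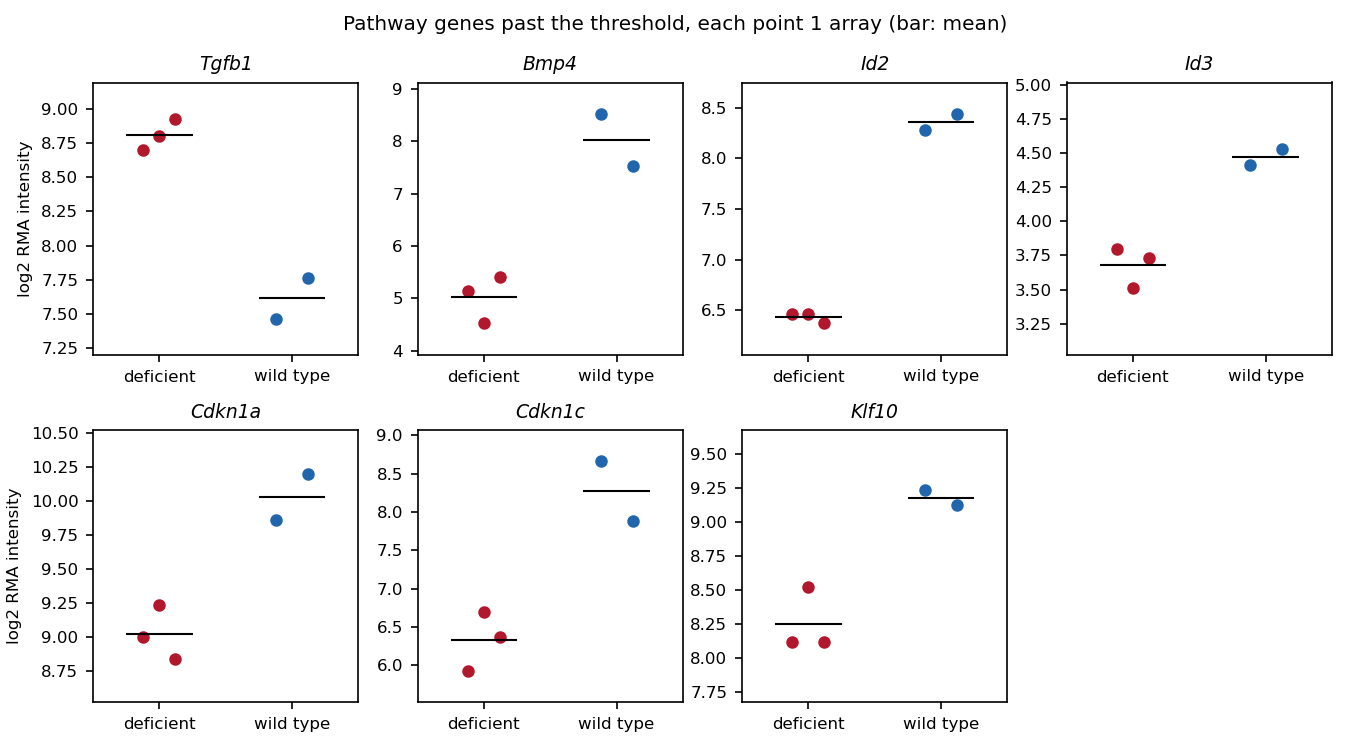
Log2 RMA intensity (vertical axis, a separate scale for each gene) of the 7 other pathway genes that passed, with 3 deficient arrays on the left and 2 wild type arrays on the right. Points are arrays and bars are group means. Tgfb1 is higher in deficient arrays and the other 6 are lower, with no overlap between the groups.

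None of the remaining roles held a called gene (limma). Among 11 other receptors and coreceptors, 3 had an unadjusted p under 0.05. The share of all genes at that level was 18.7%, here and for the roles that follow. The activin type II receptor Acvr2b differed by 0.89 (interval 0.13 to 1.64, adjusted p = 0.201, limma), the BMP coreceptor Rgmb by -0.59 and the endothelial type I receptor Acvrl1 by -0.30, both on dim probe sets. Acvr2b was 0.41 without wild type 2 and 1.36 without wild type 1.

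Of 5 other SMADs, 1 had an unadjusted p under 0.05. This was Smad6, an inhibitory SMAD of the BMP branch (difference -0.48, interval -0.79 to -0.16, adjusted p = 0.123, limma). The BMP-branch Smad5 differed by 0.35 and Smad1 by 0.53, and neither passed (adjusted p = 0.298 and 0.337, limma). Among 24 intracellular regulators and SMAD cofactors, 6 had an unadjusted p under 0.05, again beside 18.7% of all genes. Crebbp, a coactivator acetyltransferase gene, differed by 0.76 (adjusted p = 0.0908, limma), the corepressor gene Ski by 0.39 and Pmepa1, an inhibitor that TGF-beta induces, by -0.87. The 15 genes of ligand latency, release and extracellular antagonism had 0 at an unadjusted p under 0.05. There the BMP antagonist genes Nog and Chrd differed by -0.26 and -0.19, and Fstl3, a binder of activin, by 0.34.

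**Figure D5:**
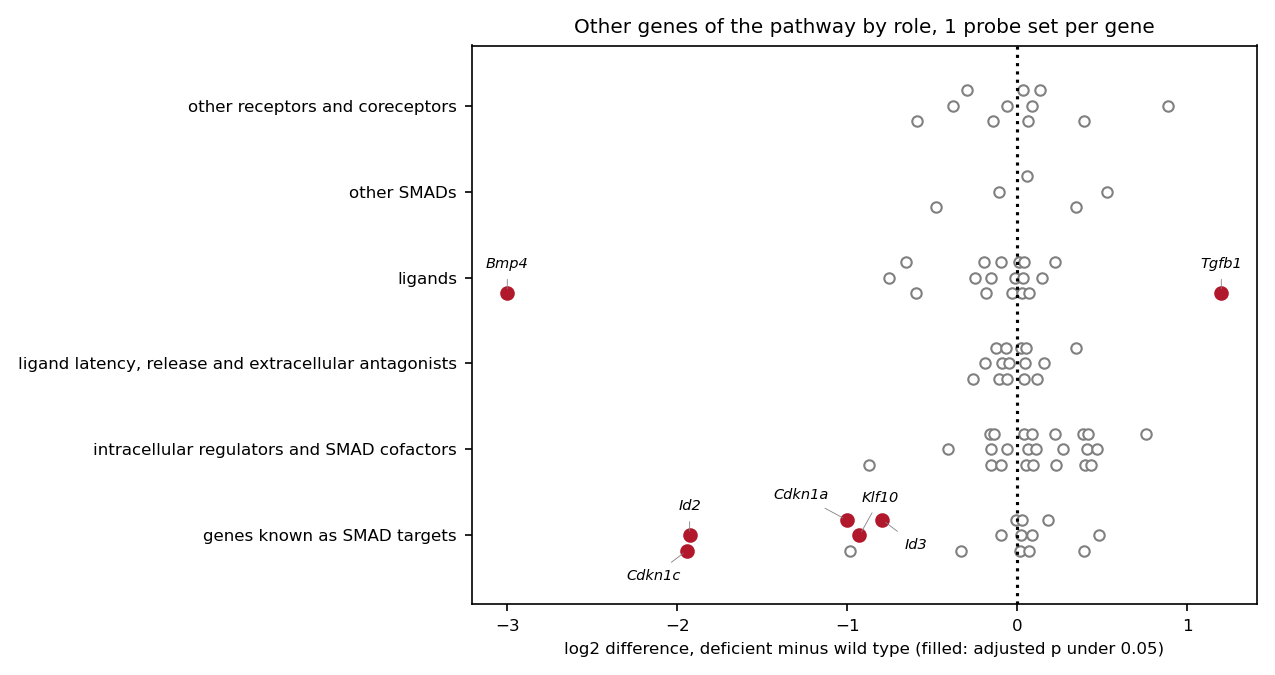
Log2 difference, deficient minus wild type (horizontal axis), of the 91 other pathway genes by role, on 1 probe set per gene. Filled points passed at an adjusted p under 0.05 and open points did not. The filled points are Tgfb1 and Bmp4 among ligands and 5 genes, all lower in deficient cells, among known SMAD targets.

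Markers of some other cells differed between the same groups of arrays, as did some signs of RNA quality. Intensities summed over 8 neutrophil granule genes were 1283 to 2287 in deficient arrays and 49360 to 60276 in wild type arrays, with all 8 called lower. Over 6 B and plasma cell genes the sums were 956 to 1176 in deficient arrays and 14801 to 28135 in wild type arrays, with 2 called lower. Those of wild type arrays were mostly Igha, Ighm and Jchain, at mean log2 levels of 13.38, 12.36 and 11.44. Cd79a, Cd79b and Ms4a1 differed by -0.76, -0.44 and -0.88 and were not called. Macrophage and dendritic cell genes summed to 1583 to 2139 in deficient arrays and 4364 to 6873 in wild type arrays over 6 genes, with 1 called lower.

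Other marker lists moved less or the other way. The 7 T and NK cell genes had 2 called lower, with sums of 2385 to 3011 in deficient arrays and 1655 to 2377 in wild type arrays. That sum was mostly Nkg7, with a mean log2 level of 11.29 in deficient arrays and 10.66 in wild type arrays, while 5 of the 7 genes had a lower mean in deficient arrays. Stroma and endothelium genes summed to 1865 to 3200 in deficient arrays and 971 to 1267 in wild type arrays. Limma called 0 of these 7. Most of this sum was Pdgfrb, with a mean log2 level of 11.25 in deficient arrays and 9.92 in wild type arrays. Among the 7 genes, 4 had a lower mean in deficient arrays, and 4 were below the median of all probe sets. For 3 erythroid genes the sums overlapped and 0 were called by limma. Sums of 4 megakaryocyte genes overlapped too, at 3961 to 5345 in deficient arrays and 4411 to 4525 in wild type arrays. Of these 4, 1 was called, Itga2b, which was higher, while 3 had a lower mean in deficient arrays. Of 7 stem and multipotent progenitor genes 1 was called lower, Procr, and in all 5 had a lower mean in deficient arrays. The sums of these 7 overlapped, at 7441 to 10410 in deficient arrays and 9707 to 11986 in wild type arrays. The 18S ribosomal RNA signal was 10.09 to 10.39 in deficient arrays and 10.92 to 10.93 in wild type arrays, and the 3′ minus 5′ signal of beta-actin was 3.34 to 3.53 in deficient arrays and 3.12 to 3.16 in wild type arrays. The same measure for Gapdh overlapped, at 4.45 to 4.87 in deficient arrays and 4.57 to 4.71 in wild type arrays. The part of cell mixture and RNA quality in the differences of Acvr1b, Tgfb1, Bmp4, Id2 and the other called genes was not tested.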

How the data were processed

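Total RNA of sorted mouse KLS cells was labelled with biotin and hybridised to Affymetrix arrays (source: the labels' protocols). Each array has 1 deposited intensity for every probe set. These intensity values were made by the authors with RMA, per the submitters' processing notes, which models background, sets arrays to a common distribution and summarises probes; a shift of all transcripts would not be seen and dim differences are compressed. The program that ran RMA is not given in these sources. Values ran from 6.96 to 31249, were treated as linear, and log2 was taken here. Arrays have no depth; their number, 3 deficient and 2 wild type, limits the precision. Columns of other samples numbered 0.

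Probe sets were named by GEO's platform annotation: 34945 had 1 symbol, 932 several and 9160 none listed. Two-sided tests without covariates were run through lmFit and eBayes of limma 3.58.1 (R 4.3.3) with Benjamini-Hochberg adjustment over 45037 probe sets, without 64 AFFX controls, or over 18193 genes with the probe set of highest mean. The fit was tested on simulated data. Members and lists were chosen with earlier results of these data known. Named are all members, each called pathway gene and up to 3 genes per role with the smallest p. Id1, Nkg7, Pdgfrb, Itga2b, Procr and the 6 B and plasma cell genes were named after their values were seen. Of 98 listed pathway symbols, older names included, 91 were measured. Sequences are RefSeq's, GRCm38.p6; array coordinates are not given because no build is named. Alternatives were quantile, cyclic loess and median normalization, filters on dim or _x_at and _s_at probe sets, trended or robust priors, array weights, an adjusted p under 0.1, the replicate number as a block, the Xist level as a covariate, the mean of a gene's probe sets, and each array left out.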

Additional observations from a re-analysis of the deposited data

How the results depend on the processing

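With 5 arrays, 221 probe sets, 0 member probe sets, 1 member gene and 7 pathway genes were called by limma. All probe sets called numbered 401 with an intensity trend, 948 at an adjusted p under 0.1, 15 with the replicate block and 143 with the Xist level as a covariate, and 23 to 78 with 1 array left out. Member probe sets called were 1 with an intensity trend and 1 at an adjusted p under 0.1, both times the brightest of Acvr1b, and 0 in the other fits. Member genes called were 0 with cyclic loess, array weights, the replicate block, the Xist covariate or each gene taken as its probe sets' mean (1 at an unadjusted p under 0.05 in each), and 0 to 1 with 1 array left out. In those 5 settings the difference of Acvr1b was 0.99, 1.01, 0.93, 1.04 and 0.53. Pathway genes called were 1 with the replicate block, which was Bmp4, 4 with the Xist covariate, and 1 to 4 with 1 array left out. There were 5 with median centring, which ended the calls of Cdkn1a (adjusted p = 0.0523, limma) and Klf10 (adjusted p = 0.0551, limma), 6 with a robust prior, without Klf10 (adjusted p = 0.0511, limma), and 6 with dim probe sets left out, Id3 then being untested. Leaving out an array lowers the number of arrays; a lone wild type array is assumed to vary like the others. With the replicate block, deficient 3 was alone in its block and did not enter the differences. That of Acvr1b was 0.93 there and also without deficient 3. The cause of the remaining changes was not tested. Among the named genes, Acvr1b and the 7 called pathway genes kept their sign in each alternative run. The numbers in the titles were not found to pair the arrays: deviations from the group means correlated at -0.05 for number 1 and -0.02 for number 2. Signal over background limits the probe sets below the median of all probe sets, 12 of the 30 member probe sets and Id3 among them.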
